A study of Arabidopsis thaliana with 30 samples.

Results

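The genes described here encode 7 cell-surface receptors of the plant immune system and 3 proteins that work beside or below them: the adaptor kinase SOBIR1, the cytoplasmic kinase BIK1 and the NADPH oxidase RBOHD. The receptors are FLS2 (AT5G46330), EFR (AT5G20480), CERK1 (AT3G21630), LYK5 (AT2G33580), PEPR1 (AT1G73080), PEPR2 (AT1G17750) and MIK2 (AT4G08850), beside SOBIR1 (AT2G31880), BIK1 (AT2G39660) and RBOHD (AT5G47910). The rule that picks them uses locus identifiers and no measured values, although the list was drawn up with earlier results of these data known; they are 10 of the 32753 genes of the deposited table. Their TPM (a relative abundance corrected for transcript length that sums to 1000000 in each library) were summed over transcript models. RNA was taken from roots of Arabidopsis thaliana Col-0 seedlings 7 days old, after 4 h of treatment, in 30 libraries that form 10 groups of 3. The RGF1 set compared untransformed wild type under mock treatment and under 100 nM of the peptide RGF1. In the RGI1 set, untransformed plants and the RiD-RGI1/BAK1 line each received mock or rapamycin at 1 µM. In the RGI5 set, untransformed plants and the RiD-RGI5/BAK1 line each received mock or rapamycin at 100 nM. The sample names of the RGI1 and RGI5 sets give the solvent DMSO as the mock. Both RiD lines carry an engineered RGI receptor together with an engineered BAK1, which rapamycin is meant to bring together inside the cell. The labels do not state the promoter of these constructs, the number of independent lines or whether replicates came from separate plants. P-values therefore measure the spread between these libraries, which may be technical.

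Pattern receptors span the plasma membrane, bind microbial molecules or the plant's own danger peptides outside the cell, and pass the signal to kinases inside. FLS2 perceives bacterial flagellin, EFR the bacterial elongation factor EF-Tu, PEPR1 and PEPR2 the Pep danger peptides, and MIK2 the SCOOP peptides; all of these pair with BAK1 or its relatives as co-receptor. CERK1 and LYK5 perceive fungal chitin through LysM domains without BAK1. SOBIR1 lends its kinase to receptor-like proteins that lack their own. BIK1 is released from activated receptor complexes and phosphorylates RBOHD, which makes the apoplastic burst of reactive oxygen. The RGI receptors of the RGF root growth peptides use the same family of co-receptors, which is the link between the engineered lines and the genes described here.

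The targeted genes were read first; the labels do not say how transcripts of the engineered copies were assigned. AT3G24240 (RGI1) was higher in the RGI1 line than in its wild type under mock (log2 fold change 2.65, limma adjusted p = 3.39e-11), and AT1G34110 (RGI5) was higher in the RGI5 line (3.65, adjusted p = 1.83e-09). BAK1 was higher in both lines. Depth is unknown, because TPM keep no record of it; 18999 to 19331 genes reached 1 TPM in a library. The 8 root markers summed to between 10069 and 12819 TPM in every library, of which PYK10 alone made up 94.3% to 97.6%; the other 7 summed to between 288 and 652 TPM. The 8 markers of green shoot tissue summed to between 30.9 and 117 TPM. In bulk root RNA, fewer cells of a type and less RNA per cell cannot be told apart. Replicate 4 of the mock-treated RGI5 line held many of the highest values of immune transcripts in its group. All 10 genes of a list of immune output genes were highest there among the 3 libraries, CYP81F2 at 32.8 TPM against 4.52 and 4.91 TPM. Of the 10 genes described here 7 were also highest there. Its spread over all genes did not set it apart. The share of all genes highest in this library was not computed, so these counts are not shown to be particular to immune transcripts. For the RGI5 line, some results of MIK2, SOBIR1, BIK1 and pathway genes are given with and without this library, and the others only with it. Since it was singled out by high values of immune transcripts, leaving it out lowers their mean in the group by construction.

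All 10 genes were detected above 0 in every library, and all 10 passed the filter for testing (1 TPM in at least 3 libraries of a fit) in each set. They fell into a high and a low tier. MIK2 (median over the 30 libraries 34.4 TPM), SOBIR1 (34.0 TPM), BIK1 (34.0 TPM), RBOHD (24.6 TPM), CERK1 (23.3 TPM) and PEPR1 (19.9 TPM) made up the high tier, and 78.4% to 86.8% of all genes in the table had a lower median than these 6. PEPR2 stood between the tiers at 7.74 TPM. The receptors of bacterial patterns and the chitin receptor LYK5 were near the floor of the measurement, FLS2 at 1.17 TPM, LYK5 at 1.49 TPM and EFR at 1.55 TPM. FLS2 reached 1 TPM in 24 of 30 libraries and ranged from 0.502 to 2.03 TPM. In the TAIR10.1 annotation, genes on the opposite strand overlap FLS2 (AT5G46340, mean 24.4 TPM) and PEPR2 (AT1G17760, mean 15.9 TPM). The labels' protocols name a stranded library kit, but they do not say whether the quantification used strand. The part of these neighbours in the values of FLS2 and PEPR2 was not tested.

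The lower end of the order was the same in all 10 groups. The 3 low receptors always held the last 3 places, and most neighbouring pairs among them overlapped in their library values. PEPR2 was always seventh and overlapped with neither neighbour in any group. MIK2 changed place most. It had the highest mean of the 10 in both groups of the RGF1 set and in all 4 groups of the RGI5 set, where its values overlapped with those of the next gene (BIK1, or SOBIR1 in the rapamycin-treated RGI5 line) except under RGF1. It held lower places in the RGI1 set, where SOBIR1 was first. In wild type under mock, MIK2 stood at 37.6 ± 2.65 TPM in the RGF1 set, 24.5 ± 1.37 TPM in the RGI1 set and 39.4 ± 3.34 TPM in the RGI5 set (mean ± SD, n = 3 each), levels that are set side by side here without a test, since each set was fitted on its own. Across all groups its highest mean was 2.68 times its lowest; for the other 9 genes this ratio ran from 1.22 (CERK1) to 1.77 (FLS2). MIK2 was also the only one of the 10 with 2 transcript models in the table, of which AT4G08850.1 carried 93.0% to 99.3% of its TPM.

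**Figure D1:**
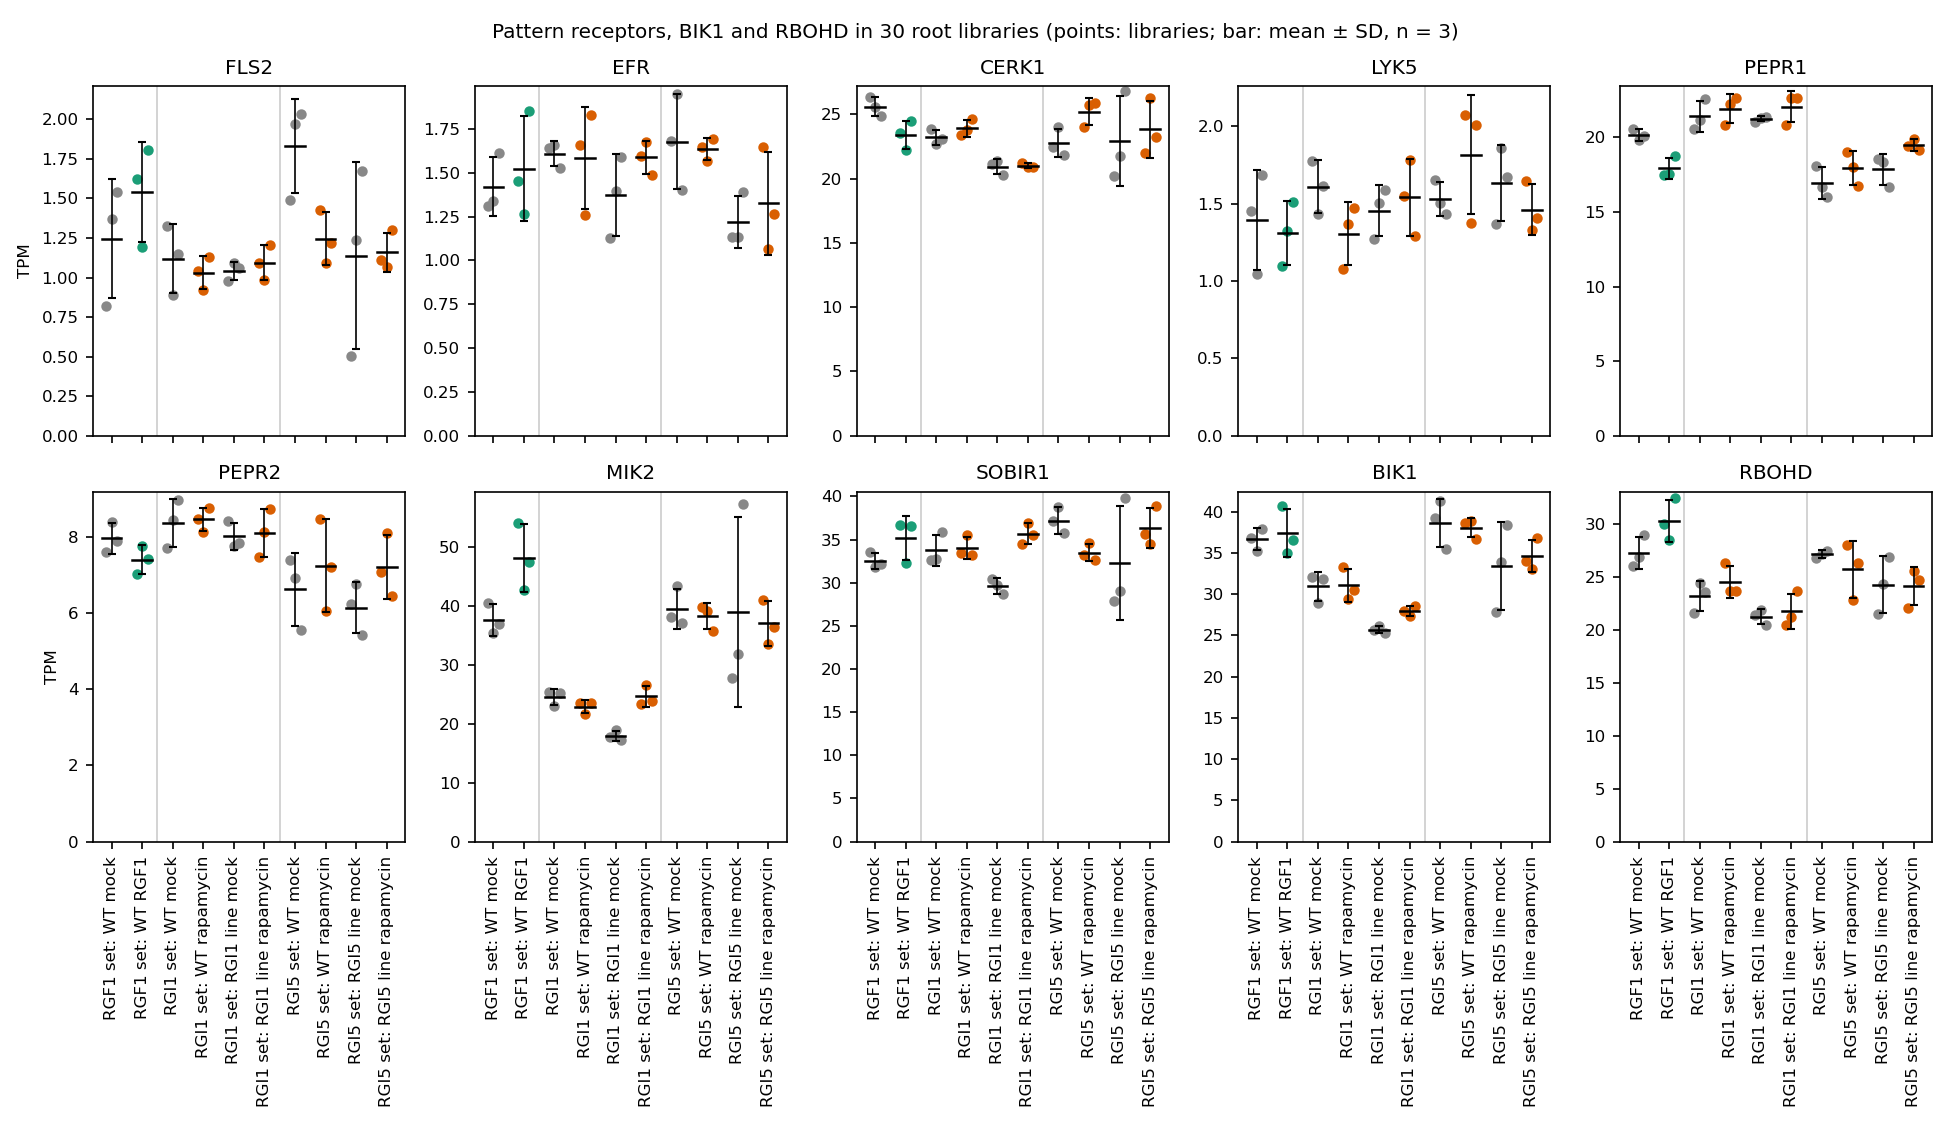
Transcript level (TPM, linear axis from 0) of the 10 genes in each of the 10 groups; points are libraries, coloured grey for mock, green for RGF1 and orange for rapamycin, and bars give the mean ± SD (n = 3). MIK2 is lowest in the mock-treated RGI1 line (17.3 to 18.9 TPM) and spreads most in the mock-treated RGI5 line (27.7 to 57.3 TPM).

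The RGF1 set asked whether the native peptide altered these transcripts in wild-type roots. None of the 10 was called by limma at an adjusted p under 0.05, in a comparison where 0.14% of the 19274 genes tested were called (0.0778% higher, 0.0623% lower); 2 of the 10 had an unadjusted p under 0.05. MIK2 measured 40.5, 35.4 and 36.8 TPM under mock and 54.1, 42.6 and 47.4 TPM under RGF1. All 3 peptide-treated libraries lay above all 3 mock libraries, the log2 fold change was 0.34 (SE 0.09), and the limma adjusted p was 0.282 (unadjusted 0.00578). PEPR1 measured 20.6, 19.8 and 20.1 TPM under mock and 17.5, 17.5 and 18.7 TPM under RGF1. Its groups did not overlap either, in the other direction, with a log2 fold change of -0.16 (95% interval -0.32 to -0.00, limma adjusted p = 0.488). CERK1 likewise lay lower without overlap, at 23.4 ± 1.10 against 25.6 ± 0.745 TPM (n = 3 each; log2 fold change -0.12, adjusted p = 0.592). For the 7 genes with a mean of at least 5 TPM the 95% intervals ran from -0.32 to 0.56 on the log2 scale. Of the 10 genes 6 were above 0, and the median log2 fold change of the 10 was 0.04 against -0.05 over all genes tested. The non-coding RNA AT1G15405 took 8.52 ± 1.66% of the TPM under RGF1 and 5.24 ± 2.11% under mock (n = 3 each), with overlapping libraries. A larger share lowers the TPM of other genes by construction.

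Rapamycin alone, in wild type without the engineered receptors, served as the control for the compound. At 1 µM, 0 of the 10 genes were called by limma, where 0% of 19634 genes were called in all, and 0 of the 10 had an unadjusted p under 0.05. MIK2 measured 25.4, 23.0 and 25.3 TPM under mock and 23.4, 21.7 and 23.5 TPM under rapamycin, groups that overlapped. For the 7 better expressed genes the log2 fold changes lay between -0.10 and 0.08 and their 95% intervals between -0.24 and 0.22. At 100 nM, 0 of the 10 were called by limma, where 0.00509% of 19652 genes were called, and again 0 had an unadjusted p under 0.05. The intervals were wider in that set, from -0.47 to 0.40 for the same 7 genes. FLS2 had the estimate farthest from 0, at -0.33 (SE 0.19, limma adjusted p = 0.769). It measured 1.49, 1.97 and 2.03 TPM under mock and 1.43, 1.09 and 1.22 TPM under rapamycin. Estimates are on log2(TPM + 1), which understates fold changes of genes at such low levels.

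In the RGI1 line MIK2 and SOBIR1 were higher under 1 µM rapamycin than under mock. These 2 of the 10 genes were called higher and none lower by limma, against 4.05% of all genes called (2.56% higher, 1.49% lower). MIK2, the SCOOP peptide receptor, measured 17.7, 18.9 and 17.3 TPM under mock and 23.3, 26.6 and 23.9 TPM under rapamycin. Every rapamycin library exceeded every mock library. The rise was 1.37-fold in mean TPM (log2 fold change 0.43, SE 0.06, limma adjusted p = 0.00231), and it remained called when any 1 of the 6 libraries was left out, with adjusted p up to 0.0154. In a single fit of all 30 libraries the MIK2 call was lost (adjusted p = 0.191).

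SOBIR1, the adaptor of receptor-like proteins, measured 30.4, 29.8 and 28.6 TPM under mock and 34.5, 36.9 and 35.6 TPM under rapamycin in the same line. These groups were also separate. The mean rose from 29.6 ± 0.897 to 35.7 ± 1.21 TPM (n = 3 each; log2 fold change 0.26, SE 0.05, limma adjusted p = 0.0139). It was lost without replicate 3 of the mock group (adjusted p = 0.051), without replicate 4 of that group (0.071) and without replicate 2 of the rapamycin group (0.053). It was also lost with all 30 libraries in a single fit (adjusted p = 0.142). A gene on the opposite strand, AT2G31890, overlaps SOBIR1 in the TAIR10.1 annotation. AT2G31890 averaged 2.93 TPM and did not pass the test in this comparison (log2 fold change -0.12, limma adjusted p = 0.596). The library kit was stranded, and the use of strand in the quantification is not stated.

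The kinase and the oxidase that act next were not called. BIK1 measured 25.6, 26.2 and 25.3 TPM under mock and 27.9, 27.4 and 28.6 TPM under rapamycin. The groups were separate, but the difference missed the threshold (log2 fold change 0.12, 95% interval -0.01 to 0.24, limma adjusted p = 0.347). RBOHD stood at 21.3 ± 0.719 and 21.8 ± 1.65 TPM (log2 fold change 0.03, 95% interval -0.11 to 0.18), and CERK1 at 20.9 ± 0.558 and 21.0 ± 0.188 TPM (0.01, -0.09 to 0.10; n = 3 each). PEPR1 differed by 0.05 (95% interval -0.07 to 0.17) and PEPR2 by 0.01 (-0.14 to 0.17). For FLS2, EFR and LYK5 the intervals ran from -0.20 to 0.37, on a log2(TPM + 1) scale that understates changes at their low levels. All 10 estimates were above 0, as were 61.1% of all genes tested, and their median was 0.05 against 0.03 over all genes. Of the 8 root markers 2 were lower in the same comparison, the root hair genes PRP3 (19.8 ± 3.53 to 8.28 ± 1.51 TPM, n = 3 each; log2 fold change -1.17, limma adjusted p = 0.000536) and EXPA7 (75.1 ± 1.91 to 63.5 ± 1.32 TPM; -0.24, adjusted p = 0.0374). Their part in the changes of MIK2 and SOBIR1 was not tested.

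The RGI1 line already differed from its wild type under mock, and in the opposite direction. Of the 10 genes 4 were called lower by limma (MIK2, BIK1, SOBIR1 and CERK1) and 0 higher, where 16.5% of all genes were called (14.5% lower and 2% higher). MIK2 measured 25.4, 23.0 and 25.3 TPM in wild type and 17.7, 18.9 and 17.3 TPM in the line, so no line library reached the wild-type range. Its line mean was 0.731 times the other, a log2 fold change of -0.43 (SE 0.06; limma adjusted p = 0.00115). The call remained without any 1 of the 6 libraries and was lost with all 30 libraries in a single fit (adjusted p = 0.067).

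BIK1 measured 32.1, 28.9 and 31.9 TPM in wild type and 25.6, 26.2 and 25.3 TPM in the line under mock. The groups were separate, with a log2 fold change of -0.26 (SE 0.06, limma adjusted p = 0.0102), and the call also remained without any 1 library and with all 30 libraries in a single fit (adjusted p = 0.04). SOBIR1 measured 32.7, 32.8 and 35.8 TPM in wild type against 30.4, 29.8 and 28.6 TPM in the line (log2 fold change -0.18, limma adjusted p = 0.0311). CERK1 measured 23.8, 22.7 and 23.1 TPM against 21.1, 21.4 and 20.3 TPM (-0.14, adjusted p = 0.0467). Both pairs of groups were separate, yet both calls were lost when any 1 of the 6 libraries was left out, with adjusted p from 0.0528 to 0.0975 for SOBIR1 and from 0.0802 to 0.15 for CERK1. With all 30 libraries in a single fit neither was called (adjusted p = 0.17 and 0.215).

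Most genes in this comparison lay slightly below 0: the median over all genes was -0.09, 24.1% were above 0, and the 10 genes had a median of -0.13 with none above 0. The non-coding RNA AT1G15405 took 10.9 ± 0.279% of the TPM in the line and 7.00 ± 0.694% in wild type (n = 3 each), which lowers the TPM of other genes by construction. After median-ratio scaling, which brought the median of all genes to 0.00, MIK2 remained called lower (-0.33, limma adjusted p = 0.00749), whereas BIK1 (-0.15, adjusted p = 0.179), SOBIR1 (-0.08, 0.411) and CERK1 (-0.04, 0.668) did not. With this scaling the calls over all genes were 729 higher and 964 lower, in place of 393 higher and 2846 lower. Green shoot markers summed to 70.4 to 82.4 TPM in the line and 42.3 to 51.0 TPM in wild type. Of the root markers 2 of 8 were lower in the line, the nitrate transporter NRT2.1 (119.6 ± 4.05 against 37.4 ± 7.21 TPM, n = 3 each; limma adjusted p = 0.000672) and PLT1 (7.95 ± 0.187 against 6.43 ± 0.217 TPM; adjusted p = 0.0288). The part of these markers in the differences of the 10 genes was not tested.

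Rapamycin in the RGI1 line, the line against wild type under mock, and the difference between line and wild type in their rapamycin responses all use the same 3 mock libraries of the line, so the opposite signs of the first 2 are not independent. Under rapamycin the line's MIK2 mean was 1.00 times that of mock-treated wild type (24.6 ± 1.76 against 24.5 ± 1.37 TPM), with overlapping values. SOBIR1 under rapamycin was 1.06 times the wild-type mock mean, also with overlap. BIK1 (0.903) and CERK1 (0.905) under rapamycin lay below all wild-type mock libraries. The rapamycin response of the line exceeded that of wild type by 0.53 for MIK2 (SE 0.09, limma adjusted p = 0.0144), the single call among the 10 genes where 1.25% of all genes were called (0.82% higher), and each of the 12 fits that left out 1 library kept it (adjusted p up to 0.046). With the replicate number as a block it was not called (adjusted p = 0.117), nor with all 30 libraries in a single fit (0.528). For SOBIR1 the response was larger in the line by 0.25 (SE 0.07), which did not pass (adjusted p = 0.154).

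**Figure D2:**
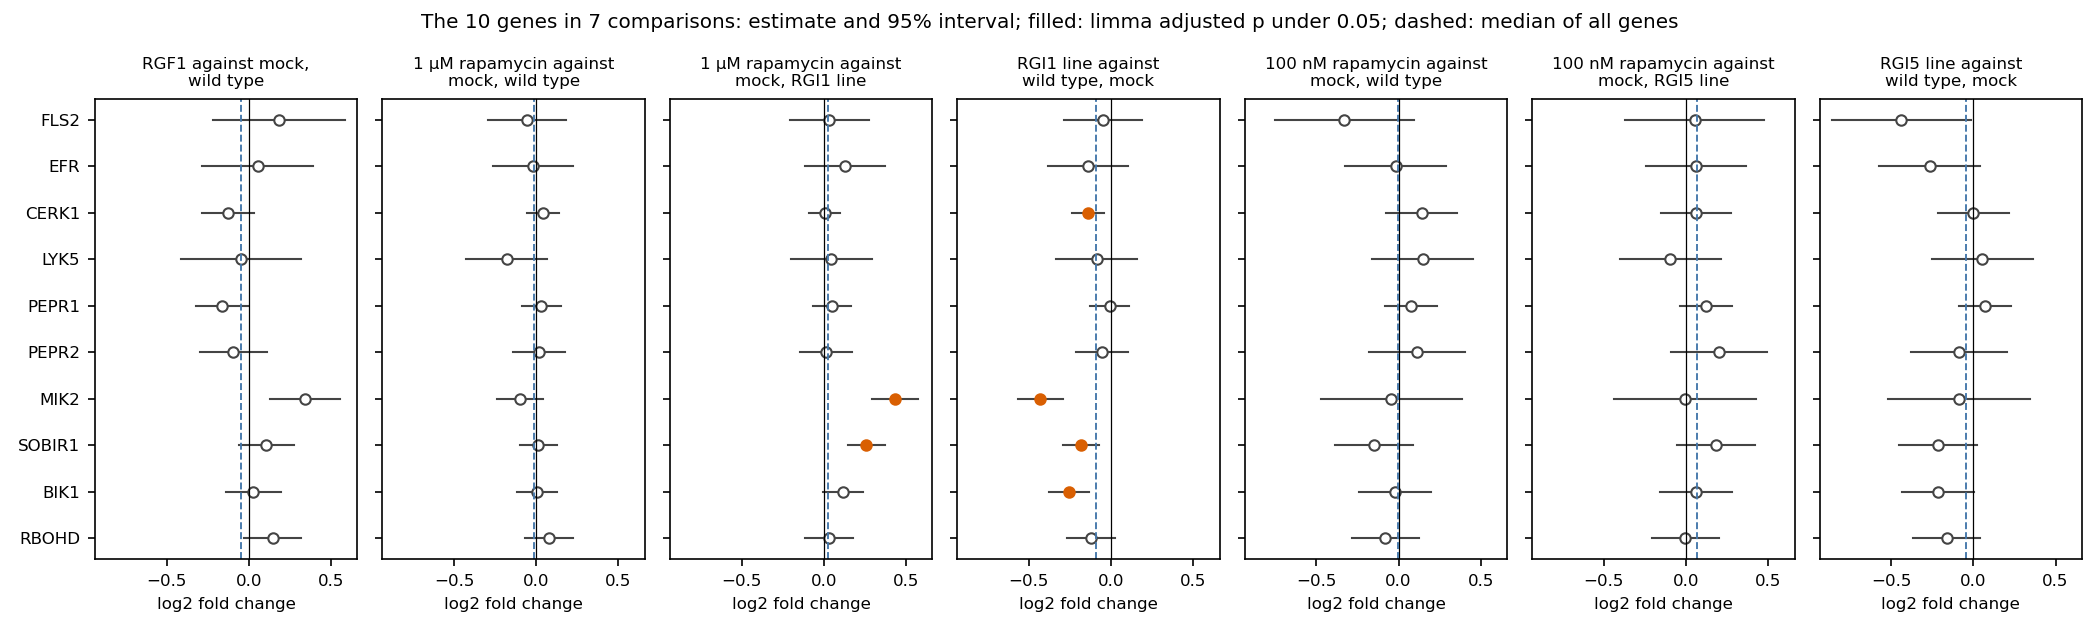
Log2 fold change of the 10 genes with its 95% interval in 7 comparisons (on the log2(TPM + 1) scale); filled circles are limma calls at an adjusted p under 0.05 and the dashed line is the median of all genes tested. Calls are limited to rapamycin in the RGI1 line (MIK2 and SOBIR1 higher) and to the RGI1 line against wild type under mock (CERK1, MIK2, SOBIR1 and BIK1 lower).

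The RGI5 line was tested at 100 nM rapamycin, a lower dose than the 1 µM of the RGI1 line, so its values stand beside those above without a comparison. Rapamycin against mock in the RGI5 line gave 0 calls among the 10 genes with limma, where 0% of 19652 genes were called, and 0 of the 10 had an unadjusted p under 0.05. SOBIR1 measured 27.8, 29.0 and 39.8 TPM under mock and 35.7, 34.4 and 38.9 TPM under rapamycin. MIK2 measured 27.7, 31.8 and 57.3 TPM under mock and 41.0, 33.5 and 36.4 TPM under rapamycin. In both genes the highest mock value came from replicate 4, the library singled out above for high immune transcripts. In both the other 2 mock libraries lay below all 3 rapamycin libraries. The log2 fold change of MIK2 was -0.01 (limma adjusted p = 0.996) with replicate 4 and 0.30 (0.355) without it; that of SOBIR1 was 0.18 (0.554) with it and 0.34 (0.225) without it. For the 7 better expressed genes the intervals ran from -0.44 to 0.49. The difference between line and wild type in this response gave 0 limma calls among the 10 where 0% of genes were called, and 0 had an unadjusted p under 0.05; SOBIR1 came nearest, at 0.33 (95% interval -0.00 to 0.67, adjusted p = 0.467).

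Under mock the RGI5 line against its wild type gave 0 calls among the 10 genes with limma, where 0.438% of all genes were called (0.0865% higher, 0.351% lower), and 1 of the 10, FLS2, had an unadjusted p under 0.05. FLS2 measured 1.49, 1.97 and 2.03 TPM in wild type and 0.502, 1.24 and 1.67 TPM in the line. Its log2 fold change was -0.44 (limma adjusted p = 0.339), on the log2(TPM + 1) scale that understates changes at this level. SOBIR1 measured 37.1, 38.8 and 35.7 TPM in wild type against 27.8, 29.0 and 39.8 TPM in the line. Replicate 4 of the line was above every wild-type library and the other 2 line libraries were below all of them. The log2 fold change was -0.22 (limma adjusted p = 0.406) with that library and -0.38 (adjusted p = 0.0398) without it, a fit in which 0.923% of all genes were called (0.796% lower). Without it MIK2 went from -0.09 to -0.40 (adjusted p = 0.109) and BIK1 from -0.22 to -0.32 (adjusted p = 0.154). Of the 10 genes 8 were below 0, with a median of -0.13 against -0.05 over all genes tested. BAK1 itself stood at 105 ± 7.80 TPM in the mock-treated RGI5 line and at 183 ± 2.74 TPM in the mock-treated RGI1 line, against 53.4 to 54.3 TPM in the wild types of these sets.

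A list of 71 other genes of the pathway, from ligands to MAP kinases, was read beside the 10. It was also drawn up with earlier results of these data known. Of the list 61 were tested in the RGF1 and RGI1 sets and 62 in the RGI5 set. The 9 that were untested in every set were at low levels, among them the receptors RLP23, RLP42, WAK1 and WAK2. No gene of the list was called by limma under RGF1, under either dose of rapamycin in wild type, under rapamycin in the RGI5 line, or for the RGI5 line's difference in response. In the RGI1 line 1 µM rapamycin gave 2 higher (RLP30 and BKK1) and 1 lower (AT4G25090), so 4.92% of the list was called beside 4.05% of all genes.

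RLP30 is a receptor-like protein that needs SOBIR1. It measured 5.70, 6.09 and 5.25 TPM in the mock-treated RGI1 line and 7.99, 7.24 and 7.95 TPM after rapamycin, next to 7.90, 7.86 and 7.65 TPM in wild type under mock. The mock libraries of the line were lowest, and the rapamycin-treated line overlapped with wild type. RLP30 rose by 0.39 (SE 0.07, limma adjusted p = 0.00821) with rapamycin, remained called without any 1 library, and was lower in the line than in wild type under mock (-0.40, adjusted p = 0.00313). Its response exceeded that of wild type by 0.49 (adjusted p = 0.0331), a call that only 2 of the 12 fits with 1 library left out retained (adjusted p up to 0.0873). In the TAIR10.1 annotation RLP30 overlaps AT3G05350 on the same strand, which averaged 7.64 TPM and did not pass the test with rapamycin (0.11, adjusted p = 0.655).

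BKK1, a close relative of BAK1 and a co-receptor of the same receptors, measured 7.47, 7.66 and 7.36 TPM in the mock-treated RGI1 line and 9.29, 9.67 and 9.47 TPM after rapamycin. Wild type under mock stood at 10.2, 9.13 and 9.27 TPM, overlapping with the rapamycin-treated line. The rise in the line was 0.30 (SE 0.06, limma adjusted p = 0.0153), lost without mock replicate 1 (adjusted p = 0.0516), mock replicate 4 (0.068) or rapamycin replicate 2 (0.0529). AT4G25090, which the annotation names by its riboflavin synthase-like fold and which was listed with the NADPH oxidases, fell from 27.9 ± 1.51 to 23.7 ± 0.669 TPM (n = 3 each; -0.22, adjusted p = 0.0394). That call was kept in 1 of 6 fits with a library left out, the one without mock replicate 4, and the highest adjusted p of the others was 0.15.

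**Figure D3:**
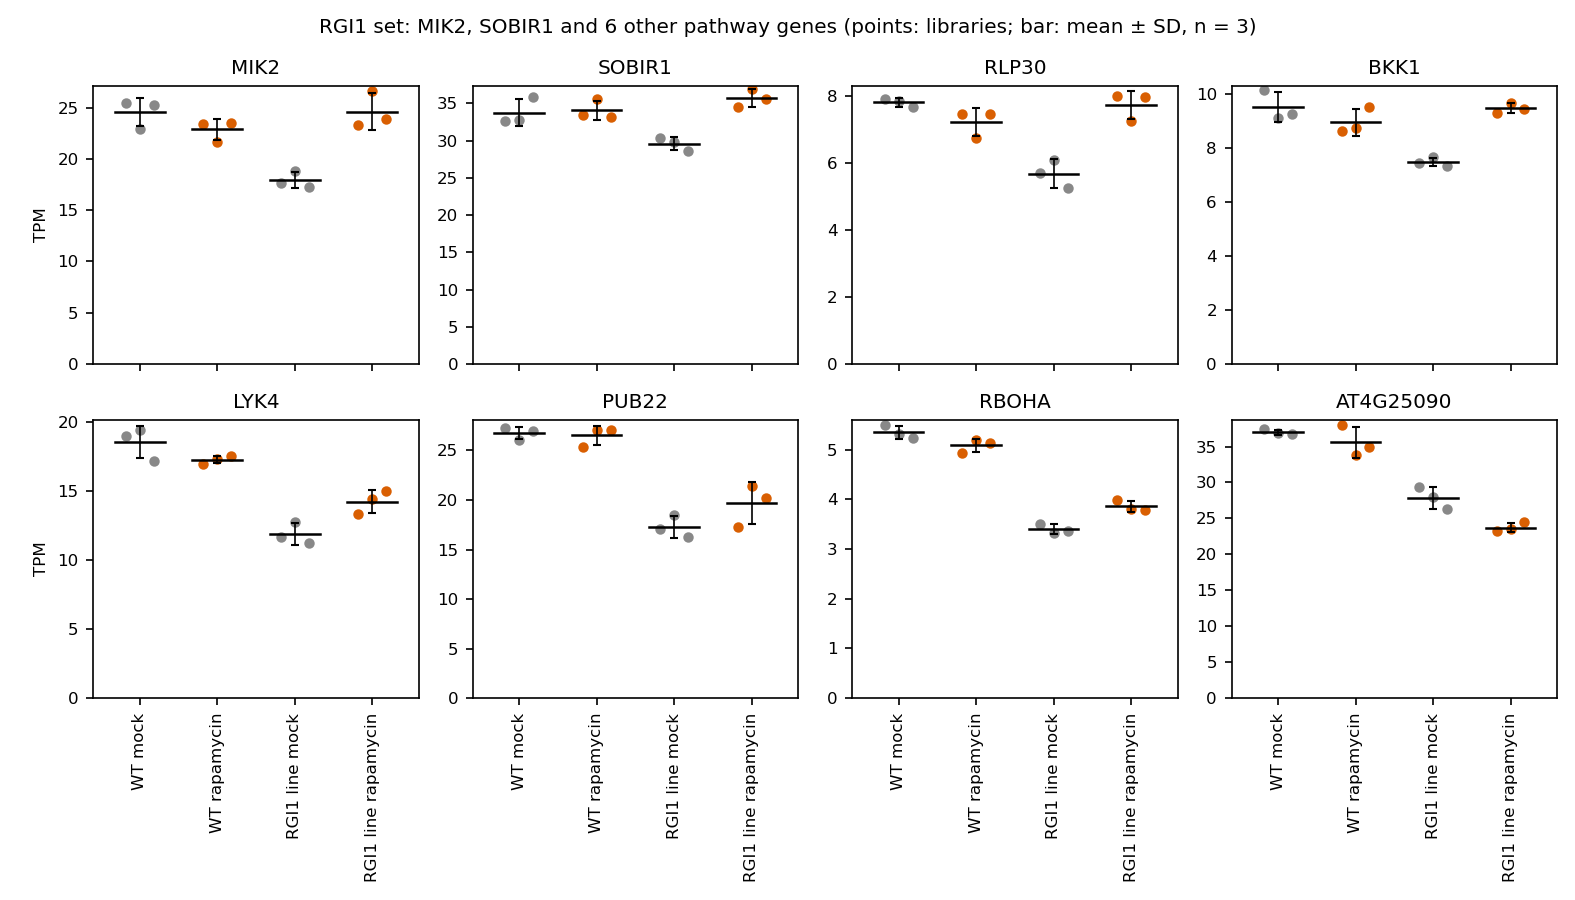
TPM (linear axis from 0) of MIK2, SOBIR1 and 6 other pathway genes in the 4 groups of the RGI1 set; points are libraries and bars the mean ± SD (n = 3). MIK2, SOBIR1, RLP30 and BKK1 are lowest in the mock-treated line and overlap with mock-treated wild type after rapamycin, whereas LYK4, PUB22, RBOHA and AT4G25090 stay below mock-treated wild type.

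In the RGI1 line against wild type under mock, 39.3% of the tested pathway genes were called, 22 lower and 2 higher, beside 16.5% of all genes; the median of the list was -0.15 against -0.09. The 2 higher were BAK1 itself, a partner of the engineered pair, and PROPEP4, a precursor of Pep danger peptides (0.35, limma adjusted p = 0.0428), which only the fit without wild-type mock replicate 3 kept among the 6 with a library left out. Leaving out 1 library brought the count of lower genes to between 13 and 19: it was 13 without wild-type mock replicate 2, without line mock replicate 1 or without line mock replicate 3, and 15 without wild-type mock replicate 1. Over all genes, the fits with 1 library left out gave 1336 to 2472 lower calls in place of 2846. After median-ratio scaling 11 of the list were lower and 3 higher, where 964 of the 19634 genes tested were lower and 729 higher.

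By role, the oxidases held the most lower calls, 5 of the 7 tested, where 14.5% of all genes were called lower. RBOHA fell from 5.48, 5.31 and 5.24 TPM in wild type to 3.51, 3.33 and 3.37 TPM in the line (log2 fold change -0.53, limma adjusted p = 0.000273), and AT4G25090 from 37.0 ± 0.349 to 27.9 ± 1.51 TPM (n = 3 each; -0.40, adjusted p = 0.000631). RBOHD, the oxidase of the immune burst, was not among them at 23.2 ± 1.43 and 21.3 ± 0.719 TPM (-0.12, adjusted p = 0.235). The receptors had 3 of 9 lower, led by LYK4, a LysM receptor-like kinase that acts with LYK5 in chitin perception, at 19.0, 19.4 and 17.2 TPM in wild type and 11.7, 12.8 and 11.2 TPM in the line (-0.60, adjusted p = 0.00013). These groups were wide apart, while LYK5 itself measured 1.61 ± 0.172 and 1.46 ± 0.164 TPM (-0.09, adjusted p = 0.633) and CERK1 was lower by the small step given above.

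Single genes of other roles were lower too. IOS1, a malectin-like receptor kinase that associates with FLS2, EFR and BAK1, fell from 43.4 ± 0.597 to 30.6 ± 1.85 TPM (n = 3 each; -0.49, limma adjusted p = 0.000277). PUB22, a ubiquitin ligase that dampens immune signalling, fell from 26.8 ± 0.609 to 17.3 ± 1.15 TPM (-0.61, adjusted p = 0.000264) and was the only 1 of 6 inhibitors called. Of the other roles, 3 of 10 MAP kinase cascade genes and 2 of 5 cytoplasmic kinases were called lower. So were 2 of 4 calcium-dependent kinases and 2 of 3 scaffold genes, beside 14.5% of all genes. Counts by role were not repeated after median-ratio scaling. AT5G44585, a locus the annotation does not name, fell from 41.2 ± 2.77 to 22.4 ± 1.62 TPM (-0.85, adjusted p = 0.00167). In the rapamycin-treated line IOS1 stood at 28.3 to 31.3 TPM, PUB22 at 19.7 ± 2.12 TPM and LYK4 at 14.2 ± 0.826 TPM. None of these 3 was called against the mock-treated line, whose libraries also served in the comparison with wild type.

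**Figure D4:**
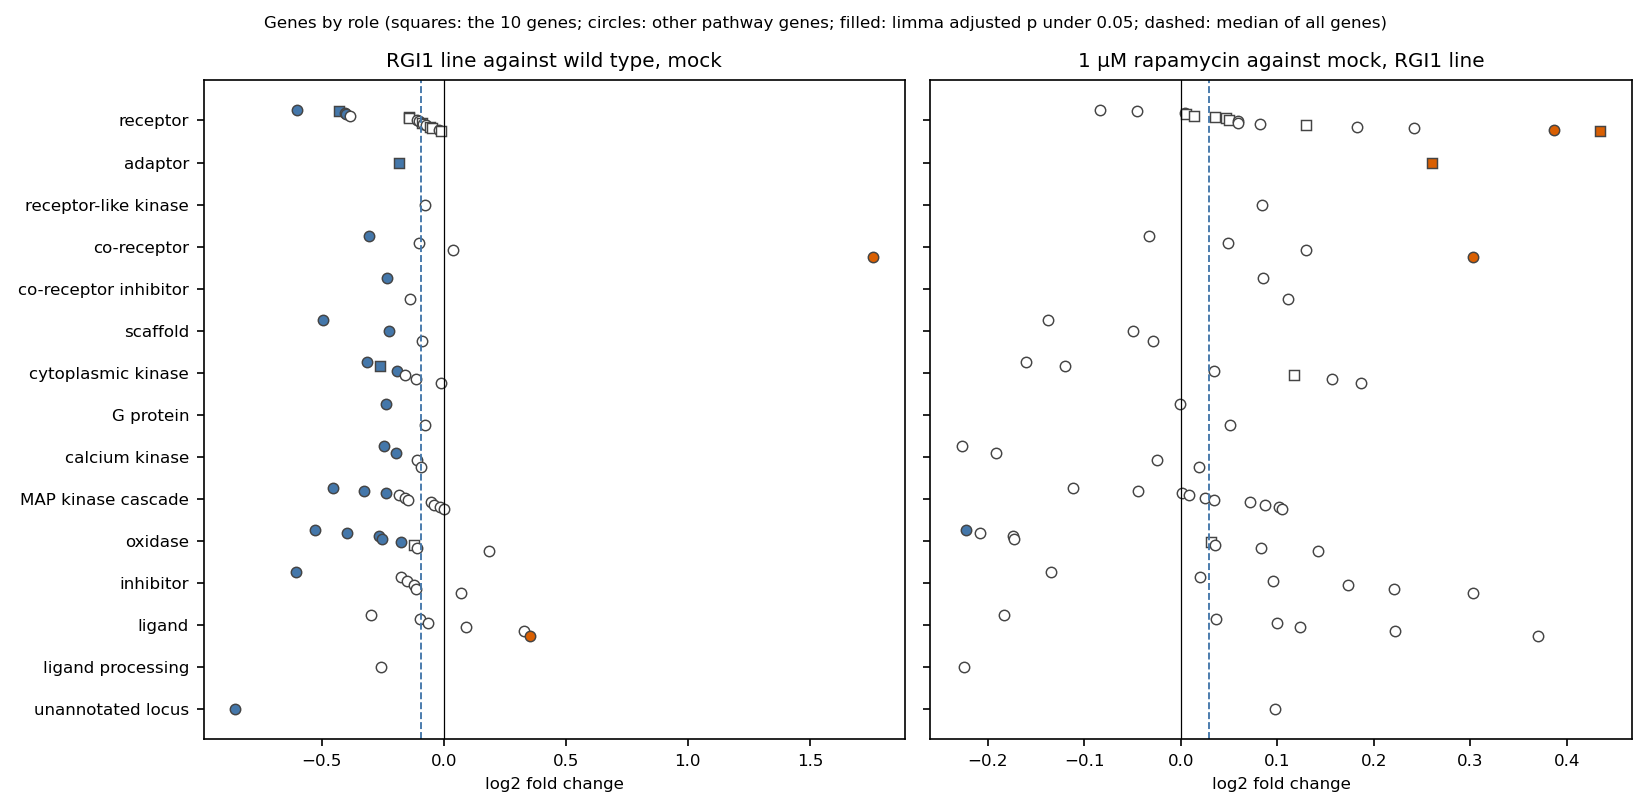
Log2 fold change of the 10 genes (squares) and of the tested genes of the pathway list (circles), by role, for the RGI1 line against wild type under mock (left) and for 1 µM rapamycin against mock in that line (right); the axes differ in range and both comparisons share the line's mock libraries. Filled symbols are limma calls, orange for higher and blue for lower; the dashed line is the median of all genes. The left panel holds 22 lower calls of the list, 5 of them oxidases, and BAK1 at 1.76.

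In the RGI5 line under mock 2 of 62 pathway genes were called, beside 0.438% of all genes: BAK1 higher (0.94, limma adjusted p = 4.17e-05) and AT4G25090 lower (-0.49, adjusted p = 0.0377). AT4G25090 stood at 55.2 ± 1.79 TPM in wild type and 39.1 ± 2.54 TPM in the line (n = 3 each), and of the 6 fits with 1 library left out only the one without line mock replicate 4 kept its call. Without that replicate IOS1 and RBOHA were also called lower, as were 0.796% of all genes against 0.351% with it. The immune output genes were a list of 10: FRK1, NHL10, CYP81F2, CYP71A12, WRKY29, WRKY22, WRKY33, WRKY53, MYB51 and PEN3. With rapamycin in the RGI1 line 5 of them were called higher (50% of the list beside 2.56% of all genes called higher). WRKY22 had means of 2.53 TPM under mock and 2.51 TPM under rapamycin. In that line against wild type under mock 7 were called lower (70% beside 14.5% called lower). There 2 of the 10 were above 0. MYB51 had means of 6.03 TPM in wild type and 6.60 TPM in the line, and NHL10 of 6.59 and 6.66 TPM. Both counts use the same 3 mock libraries of the line. The list was drawn up with earlier results of these data known, so these shares are no independent evidence. Median-ratio scaling took the lower calls over all genes in the mock comparison from 2846 to 964. The count for the output list after that scaling is not given here.

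The genes whose pattern over the 10 group means was most like that of each of the 10 were found by Pearson's r of log2(TPM + 1). These points share 3 sets with different levels, so r describes the sets as much as the treatments. For each of the 10, the r listed are the highest found in a search of many genes over only 10 points. Such a search can return high r for unrelated genes too. The r values were not compared with what it gives by chance, so they rank genes and do not show a shared pattern. For MIK2 they were AT5G18550 (r = 0.978) and the transcription factor WRKY48 (0.977), for BIK1 AT2G42060 (0.991) and the receptor-like protein RLP22 (0.989), and for RBOHD SS3 (0.985) and AT1G33612 (0.976). For SOBIR1 the nearest were lower, UGT76C2 (0.926) and VPS20.2 (0.916), and for LYK5 lower still, AT1G79390 (0.876) and AT3G28620 (0.866). PEPR1 had AT4G33780 (0.984) and URH2 (0.982), PEPR2 AT3G48830 (0.964) and EDA18 (0.962), CERK1 TBL28 (0.962) and AT3G10770 (0.955), EFR AT5G45475 (0.983) and AT2G37510 (0.937), and FLS2 AT5G17980 (0.956) and UMAMIT10 (0.930). Among the 10 themselves MIK2 ran with BIK1 (0.919) and RBOHD (0.844) and against PEPR1 (-0.83), and PEPR1 ran with PEPR2 (0.873).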

How the data were processed

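Root mRNA libraries came from a stranded kit, per the labels' protocols. The authors deposited TPM per transcript model and library; column sums of 1000000 identify the unit. Salmon and DESeq2 are named in the submitters' processing notes with no version or role; for genome build and transcript index: not given in the sources. Depth is unknown, so no counting error could be given. TPM were summed to 32753 genes; TAIR10.1 gave names and overlapping genes, and loci it does not name are given by identifier.

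Each set was fitted alone with limma 3.58.1 (R 4.3.3) on log2(TPM + 1), group means, intensity trend, for genes with at least 1 TPM in at least 3 libraries. P-values were adjusted by Benjamini-Hochberg over all genes tested within each of 9 comparisons, calls having an adjusted p under 0.05. Fold changes understate those of weak genes. No column was left out. Wild-type columns of the RGI1 set were matched to titles by elimination.

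The genes described, the pathway, output and marker lists, and the tests were chosen with earlier results of these data known. The text names the 10 genes in every comparison, with BAK1, RGI1 and RGI5 as a check. It also names up to 6 called pathway genes per direction by smallest p, and the 2 genes most like each of the 10. The output list is named in full. CYP81F2, MYB51, NHL10 and WRKY22 were picked for printed values after these were seen. IOS1 and RBOHA (RGI5 line), and untested receptors, were also named after their values were seen. Alternatives were quantile normalization, median-ratio scaling, no filter, a filter at a mean of 5 TPM, a pseudocount of 0.1 or 5, a replicate block, all 30 libraries in a single fit, a minimum absolute log2 fold change of 1, and each library left out in turn.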

Additional observations from a re-analysis of the deposited data

Results flagged for a closer look

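In the RGI1 set the rapamycin response of MIK2 differed between the line and wild type by 0.53 on the log2 scale (limma adjusted p = 0.0144): MIK2 was 0.43 higher in the line and 0.10 lower in wild type, with all 3 rapamycin libraries of the line above all 3 of its mock libraries. The response of RLP30 differed by 0.49 (adjusted p = 0.0331), in the same direction. As given above, the MIK2 call was lost with the replicate block and with all 30 libraries in a single fit. Most fits with 1 library left out lost the RLP30 call. Both differences use the mock libraries of the line, which were also the lowest of the 4 groups of the set for both genes.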

How the results depend on the processing

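The count of called genes among the 10 did not change under any alternative for RGF1, rapamycin in either wild type, rapamycin in the RGI5 line, or the RGI5 line's difference in response, where it was 0. For rapamycin in the RGI1 line it was 2, 1 with the replicate block (SOBIR1 lost, adjusted p = 0.0741), 0 with all 30 libraries in a single fit, 0 with a minimum absolute log2 fold change of 1, and 1 to 2 with 1 library left out. For the RGI1 line against wild type it was 4, 1 with quantile normalization, 1 with median-ratio scaling, 2 with the replicate block (SOBIR1 lost, adjusted p = 0.0994, and CERK1, 0.101), 1 with all 30 libraries (BIK1), 0 with the fold change minimum, and 2 in every fit with 1 library left out. For the RGI5 line against wild type it was 0, and 0 to 1 with 1 library left out. For the RGI1 line's difference in response it was 1, 0 with the replicate block, 0 with all 30 libraries, 0 with the fold change minimum, and 1 in every fit with 1 library left out. The fold change minimum removes these calls by construction, since no called estimate reached 1; the cause of the other losses was not tested.

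The deviations of same-numbered replicates had correlations of -0.07 to 0.05 in the RGF1 set (2 pairs), -0.04 to 0.07 in the RGI1 set and -0.06 to 0.12 in the RGI5 set. Their median was 0.028 in the RGI1 set and 0.027 in the RGI5 set, against -0.017 and 0.013 for pairs with different numbers. In the RGF1 set it was -0.012 against 0.003. Whether shared numbers mark a pairing was not tested. The replicate block moved the calls over all genes from 27 to 6 for RGF1 and 796 to 431 for rapamycin in the RGI1 line. It moved them from 86 to 15 for the RGI5 line and 245 to 55 for the RGI1 line's difference in response. All 30 libraries in a single fit gave 167, 362, 628 and 28 for these 4, and 75 in place of 0 for rapamycin in the RGI5 line and 127 in place of 0 for that line's difference in response. Without the filter on low values the calls were 6, 589, 6 and 150. Median-ratio scaling gave 391 higher and 360 lower for rapamycin in the RGI1 line in place of 503 and 293, and for RGF1 16 and 6 in place of 15 and 12. No estimate of a single gene that was called reversed its sign. FLS2, EFR and LYK5 lay at 0.502 to 2.07 TPM, where log2(TPM + 1) understates fold changes and the width of their intervals.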

Other observations

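In the mock-treated RGI5 line, 45 of the 71 pathway genes were highest in replicate 4, 15 in replicate 2 and 11 in replicate 1. The same shares over all genes were not computed, so the counts are not shown to be particular to this list. AT5G44585 measured 30.2, 30.9 and 61.8 TPM there, with replicate 4 highest, and MIK2 27.7, 31.8 and 57.3 TPM. The root mean square deviation of all genes from the group mean did not set this library apart, at 0.192 against 0.189 and 0.180 for the other 2.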
